A study of Mus musculus with 2 samples.

Results

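The 5 genes described here encode the receptor chains for interleukin-6, interleukin-27 and interleukin-10: Il6ra, Il6st, Il27ra, Il10ra and Il10rb. They are 5 of the 21938 protein-coding genes examined. They were chosen by name and not by a measured value, although earlier results of these data were known. Every open region that overlapped one of the genes or the 20 kb on either side was taken. That gave 63 of 98875 regions in replicate 1 and 57 of 91488 in replicate 2. Regions of both replicates that overlapped by at least 1 bp were joined, and the 5 windows held 56 such shared regions of 84380 in all.

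The cells were T-helper 1 primary cells, that is CD4 T cells of the interferon-γ-producing type, from C57BL/6NJ mice, profiled by ATAC-seq, in which a transposase cuts accessible DNA. There was 1 group of 2 biological replicates, with no treatment, genotype or second cell type to compare. The region names also give 96 hours and carry the words ASTARR and insert. Their meaning is not stated, so whether the libraries were made directly from the cells' chromatin or are the insert part of a reporter assay is not known. In the second case signal and open region would refer to that library. Sex was not collected, age is unknown, and both replicates carry the same donor identifier, so whether they came from separate animals is not known. Each region has a −log10 q and a signal, which the authors' file format defines as the enrichment of the region, relative to what is not stated. Paired values below give replicate 1 and then replicate 2. A test between conditions was not possible, and values are set beside the difference between replicates and beside all regions or genes. The depth in reads is unknown. In a bulk sample, a region open in more cells and a region more open in each cell cannot be told apart.

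As background, interleukin-6 binds Il6ra, and the pair then engages Il6st (gp130), the shared chain that carries the signal into the cell. T cells can shed Il6ra from their surface after activation. Interleukin-27, a dimer of the Il27 and Ebi3 products, uses Il27ra (WSX-1) together with the same Il6st and can both support Th1 differentiation and restrain effector T cells. Interleukin-10, an anti-inflammatory cytokine, binds Il10ra, and Il10rb completes the complex and is also a chain of the receptors for interleukin-22 and interferon-λ. All of these complexes act through Janus kinases and STAT proteins, STAT3 among them, and are held in check by SOCS proteins.

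Promoters of all 5 receptor genes were open in both replicates, meaning that a shared region lay within 1 kb of an annotated transcript start. Over all protein-coding genes the share was 65.9%. The genes differed in where the remaining regions lay. Il6ra carried a row of weak to moderate regions along the whole gene. Il27ra, Il10ra and Il10rb had most of theirs beyond the gene by count, but these genes fill the smaller part of their windows. Per 10 kb, promoter regions included, Il27ra had 2.44 shared regions touching the gene and 1.5 beyond it. For Il10ra these were 1.31 and 2, and for Il10rb 1.02 and 1.5. The Il10rb window contained the strongest regions of the set.

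The sequences that carry these regions are shown first, because the strongest region outside promoters differed between the genes in its motifs. Each is the mm10 sequence of the replicate 1 summit and 100 bases to either side of it, on the strand of the receptor gene. Capitals mark matches to the motifs searched. TGANTCA on either strand is the motif of AP-1, the Fos and Jun dimers that act downstream of the T cell receptor. AGGAAGT, in the Il27ra sequence, is a core of ETS factors and overlaps the AP-1 match there by 1 base.
Il6ra intron 1 region (chr3:89896750-89896950, minus strand): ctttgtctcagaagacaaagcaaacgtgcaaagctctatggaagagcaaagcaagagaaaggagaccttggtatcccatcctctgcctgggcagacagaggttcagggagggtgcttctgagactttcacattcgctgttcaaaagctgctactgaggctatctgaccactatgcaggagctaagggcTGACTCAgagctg
Il6st region within Il31ra (chr13:112530064-112530264, plus strand): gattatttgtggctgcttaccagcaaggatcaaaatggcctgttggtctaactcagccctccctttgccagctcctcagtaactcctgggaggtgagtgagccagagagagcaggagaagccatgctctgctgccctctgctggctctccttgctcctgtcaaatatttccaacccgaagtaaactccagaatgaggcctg
Il27ra upstream region (chr8:84056690-84056890, minus strand): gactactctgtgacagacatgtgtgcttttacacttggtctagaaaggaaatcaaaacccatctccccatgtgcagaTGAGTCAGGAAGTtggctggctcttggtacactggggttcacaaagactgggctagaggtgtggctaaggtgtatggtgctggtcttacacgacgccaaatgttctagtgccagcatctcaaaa
Il10ra upstream region (chr9:45280513-45280713, minus strand): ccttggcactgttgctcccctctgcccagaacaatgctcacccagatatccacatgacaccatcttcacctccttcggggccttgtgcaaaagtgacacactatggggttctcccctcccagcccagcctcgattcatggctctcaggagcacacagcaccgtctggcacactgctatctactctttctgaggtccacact
Il10rb upstream region (chr16:91398103-91398303, plus strand): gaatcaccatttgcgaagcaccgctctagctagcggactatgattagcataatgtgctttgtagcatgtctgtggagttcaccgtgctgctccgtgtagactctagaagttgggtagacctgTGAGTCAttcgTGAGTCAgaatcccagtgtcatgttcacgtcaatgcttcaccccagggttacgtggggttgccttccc

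AP-1 matches were present in 3 of these 5 windows, with 1 each at Il6ra and Il27ra and 2 at Il10rb. The Il6st and Il10ra windows held no match to any motif searched. Among all shared regions outside promoters, 30.8% had an AP-1 match around the replicate 1 summit and 30.5% around the replicate 2 summit.

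The promoter sequences of Il6ra and Il6st show the other kind of region, rich in CpG and G+C. The Il6ra window has 19 CpG dinucleotides and an AP-1 match. The Il6st sequence, cut to 143 bp so as to leave out annotated untranslated bases, has 19 CpG dinucleotides and a match to GGGCGGG, the motif of SP and KLF factors, on the other strand.
Il6ra promoter (chr3:89912769-89912969, minus strand): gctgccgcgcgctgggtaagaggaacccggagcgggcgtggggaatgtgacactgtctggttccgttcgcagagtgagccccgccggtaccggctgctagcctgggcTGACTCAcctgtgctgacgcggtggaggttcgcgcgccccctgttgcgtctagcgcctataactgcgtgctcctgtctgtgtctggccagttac
Il6st promoter (chr13:112463927-112464069, plus strand): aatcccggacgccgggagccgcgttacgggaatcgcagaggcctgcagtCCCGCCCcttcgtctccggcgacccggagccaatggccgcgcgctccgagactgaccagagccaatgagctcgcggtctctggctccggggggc

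**Figure D1:**
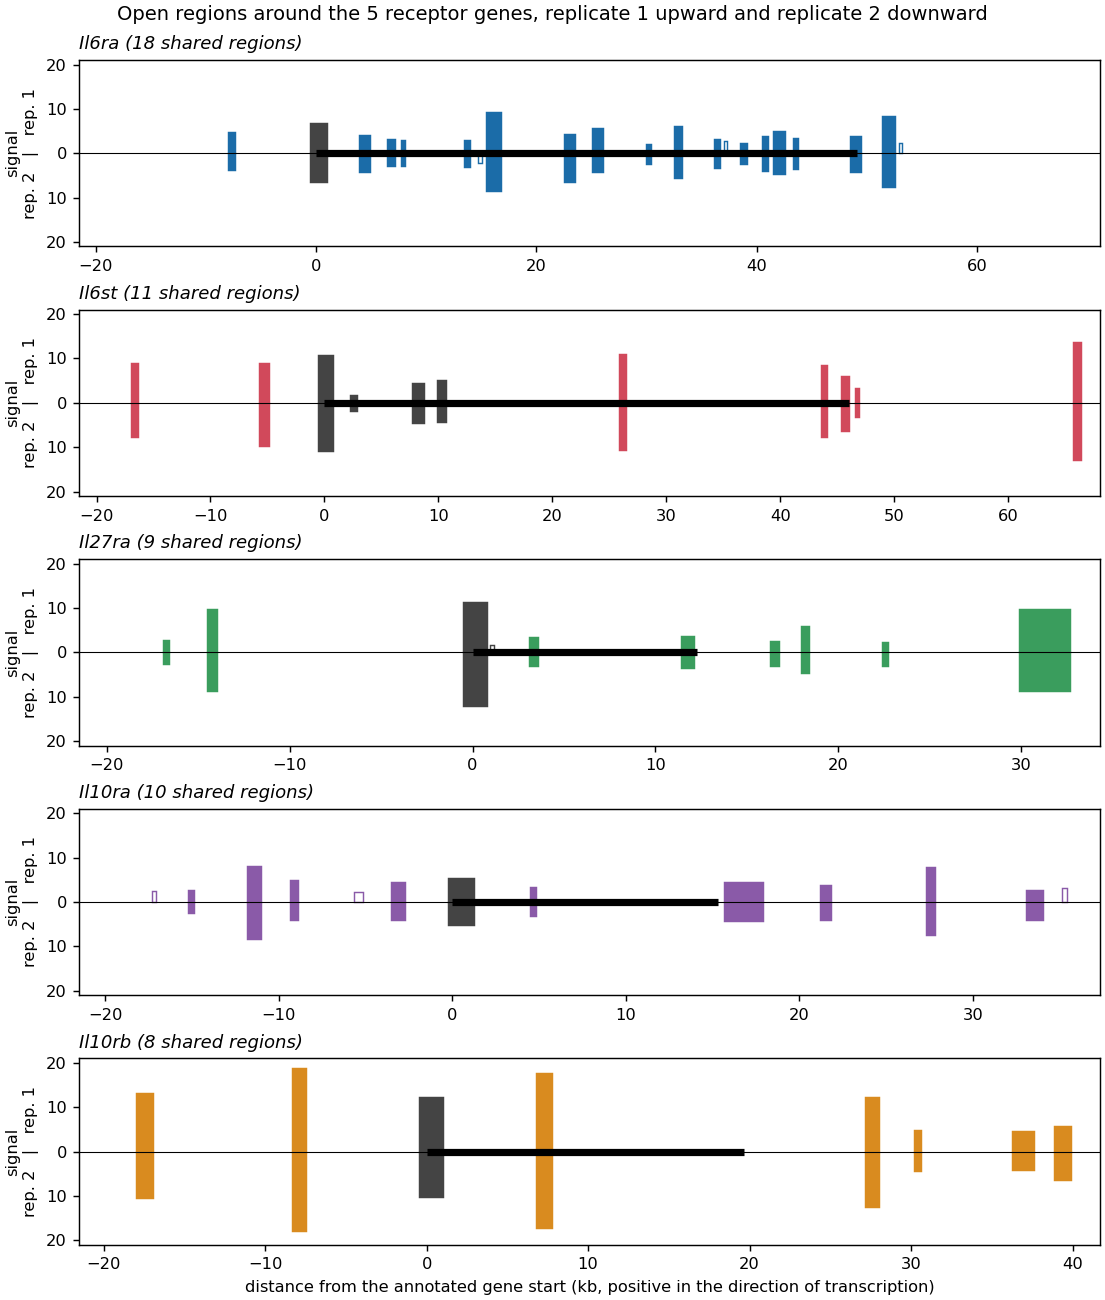
Open regions of each window, drawn by distance from the annotated gene start in kb. Bars give the signal of replicate 1 upward and replicate 2 downward, dark grey bars are the gene's own promoter regions, open bars are regions of 1 replicate only and the thick line is the gene. Il6ra has 16 of its 18 shared regions on the gene, which fills 49.1 of the 89.1 kb of its window. Il10rb has 2 of 8 on the gene, which fills 19.7 of 59.7 kb.

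Il6ra (ENSMUSG00000027947.11), the ligand-binding chain for interleukin-6, lies on the minus strand of chromosome 3 (89864059 to 89913196) and has 10 exons in its longest coding transcript. Its window held 20 and 19 regions, of which 18 were shared, or 2.02 shared regions per 10 kb. That density stood at percentile 98.9 of all protein-coding genes, whose median was 0.669 per 10 kb. Among the tenth of genes with the most similar window length the percentile was 99.7. The regions that touched the gene came to 3.26 per 10 kb (percentile 99.8 among the 14164 genes of at least 10 kb). The flanks held 2 regions, 0.5 per 10 kb, which is also the median of all genes.

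The Il6ra promoter region (89912231 to 89913755) had a signal of 6.75 and 6.58. It also covers the start of the antisense transcript Gm42809, so it cannot be assigned to one of the genes. Its signal was at percentile 16.8 and 16.6 among genes with an open promoter, and its −log10 q of 169.9 and 148.7 at percentile 39.6 and 40.9. The promoter was therefore weak by signal and nearer the middle by −log10 q, in both replicates alike.

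Outside the promoter the strongest Il6ra region by signal lay in intron 1, 16.3 kb from the start (89896405 to 89897754), with 9.34 and 8.40. The next was intergenic and lay 51.9 kb from the start, beyond the end of the gene (89860680 to 89861806), with 8.29 and 7.68. The third by mean signal lay in intron 6 at 33.0 kb, with 6.05 and 5.61, although in replicate 2 the region over exon 2 at 22.8 kb was higher. For these 3 the −log10 q gave another order: 148.0 and 115.0 for the region beyond the gene, 105.2 and 77.0 for intron 6 and 86.6 and 58.7 for intron 1. Within the last exon, which holds the 3′ untranslated part, regions lay at 42.0, 43.5 and 48.8 kb with signals between 3.49 and 4.93.

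Of the 18 shared Il6ra regions, 16 had a signal below the median of all shared regions in each replicate (6.92 and 6.72). By −log10 q, 10 of 18 were below the median (42.3 and 36.0). The weakest by mean signal, in intron 6 at 30.1 kb, had 2.12 and 2.53. Regions found in 1 replicate only lay at 53.1 kb (signal 2.31) and in intron 9 at 37.1 kb (2.82) in replicate 1, and in intron 1 at 14.8 kb (2.27) in replicate 2.

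The largest difference between replicates among the 56 shared regions was also at Il6ra. A region over exon 2 at 22.8 kb had 4.29 and 6.42, a ratio of 1.496. Its neighbour at 25.4 kb in intron 3 differed the other way, with 5.65 and 4.25, a ratio of 1.33. The −log10 q moved in the same directions, with 20.7 and 43.0 at 22.8 kb and 46.2 and 24.6 at 25.4 kb.

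Il6st (ENSMUSG00000021756.12), the gp130 chain shared by interleukin-6 and interleukin-27 receptors, lies on the plus strand of chromosome 13 (112464070 to 112510086) and has 17 exons in its longest coding transcript. Its window held 11 regions in each replicate, and all 11 were shared. The density was 1.28 per 10 kb, at percentile 85.3, and 7 of the regions touched the gene.

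Il6st has 10 annotated transcripts with starts spread over 11 kb, and 4 shared regions lay within 1 kb of one of them. The region at the first start (112463527 to 112464845) had 10.9 and 10.9, at percentile 46.4 and 48.0 of open promoters. Regions near the later starts were weaker. They had 1.71 and 1.76 at 2.4 kb, 4.44 and 4.63 at 8.5 kb, and 5.05 and 4.39 at 10.5 kb. The region at 2.4 kb was the weakest of all 56 shared regions by signal in both replicates, and its summits lay 422 bp apart, the widest gap of the set.

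Outside its promoters Il6st had its strongest region 66.1 kb from the start, at the edge of the window (112529736 to 112530414), with 13.7 and 12.9. This region overlaps an exon of Il31ra, a related receptor gene on the other strand, and was at percentile 92.7 and 91.6 of exonic regions. A region with its summit in intron 7 at 26.2 kb had 10.9 and 10.8, about as high as the promoter. Upstream, intergenic regions at −5.2 kb and −16.7 kb had 8.98 and 9.78, and 8.97 and 7.72. At the 3′ end, the last exon held regions at 43.9 kb (8.44 and 7.68) and 45.6 kb (6.02 and 6.41). The weakest region outside promoters, intergenic at 46.9 kb, had 3.25 and 3.18.

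Il27ra (ENSMUSG00000005465.9), which pairs with Il6st to bind interleukin-27, lies on the minus strand of chromosome 8 (84030294 to 84042589) with 14 exons. Its window held 11 and 9 regions and 9 shared ones, or 1.72 per 10 kb (percentile 96.5). Those that touched the gene came to 2.44 per 10 kb (percentile 98.3 among genes of at least 10 kb). The flanks held 1.5 per 10 kb (percentile 92.2 of all genes). The promoter region (84041814 to 84043127) had 11.3 and 11.99, at percentile 50.3 and 58.1. This was the one gene of the 5 whose promoter was the strongest region of its window by signal in both replicates.

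The rest of the Il27ra window was mostly weak. The gene held regions at 3.3 kb in intron 6 (3.44 and 3.08) and at 11.9 kb in exon 14 (3.68 and 3.44). The strongest region outside promoters was intergenic and upstream, at −14.2 kb (84056574 to 84057089), with 9.69 and 8.65. A region over the Palm3 gene at 18.2 kb had 6.03 and 4.62. A wide region at 31.2 kb (84009924 to 84012708) had 9.70 and 8.73 and covers starts of 2210011C24Rik and Mir1199. It joins 2 regions of replicate 1 with 1 of replicate 2. The weakest shared region by mean signal, at 22.6 kb, had 2.40 and 2.97, close to the one at −16.9 kb (2.89 and 2.57), and a region in intron 2 at 1.1 kb was found in replicate 1 only (1.66).

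Il10ra (ENSMUSG00000032089.16), the chain that binds interleukin-10, lies on the minus strand of chromosome 9 (45253837 to 45269149) with 7 exons. Its window held 13 and 10 regions and 10 shared ones, or 1.81 per 10 kb (percentile 97.4). Of the 10, 2 touched the gene, the promoter region and a region in intron 4 at 4.6 kb (3.48 and 3.19), which came to 1.31 per 10 kb (percentile 80.4 among genes of at least 10 kb). The other 8 lay beyond it, 2 per 10 kb of flank, at percentile 98.6 of all genes. At Il6ra, in contrast, the flanks were at percentile 45.8 and the gene at 99.8.

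The Il10ra promoter (45267875 to 45269400) had the lowest signal of the 5 strongest own promoter regions, 5.46 and 5.24, at percentile 10.3 and 10.01. Its −log10 q, 81.3 and 71.2, was at percentile 21.6 and 22.1. The strongest region lay upstream at −11.5 kb (45280204 to 45280978), with 8.04 and 8.24. A region at 27.5 kb, over an exon of the neighbouring gene BC049352, had 7.89 and 7.53. Closer upstream regions at −3.2 and −9.2 kb had 4.59 and 4.08, and 4.96 and 4.11. The weakest shared region, at −15.0 kb, had 2.63 and 2.38. Regions at −17.2, −5.4 and 35.3 kb were found in replicate 1 only, with signals of 2.49, 2.23 and 3.17.

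Il10rb (ENSMUSG00000022969.13), the second chain of the interleukin-10 receptor, lies on the plus strand of chromosome 16 (91406164 to 91425834) with 7 exons, directly downstream of Ifnar2, which encodes a chain of the type I interferon receptor. Its window held 8 regions in each replicate, all 8 shared, or 1.34 per 10 kb (percentile 87.3). The number was the lowest of the 5 and the signals were the highest, with a median of 12.3 and 10.3 against 6.92 and 6.72 over all shared regions.

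The pair of strongest regions stood on either side of the Il10rb promoter. One lay upstream at −8.0 kb (91397800 to 91398680), within an intron of Ifnar2, with 18.7 and 17.9. The other lay in intron 3 of Il10rb at 7.3 kb (91412920 to 91413929), with 17.6 and 17.1. Both were at or above percentile 99.0 of shared intronic regions by signal in both replicates, and at or above percentile 97.4 by −log10 q. Their summits were at the same base in both replicates. The third outside promoters, intergenic at 27.5 kb, had 12.3 and 12.5.

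The Il10rb promoter (91405699 to 91407173) had 12.3 and 10.2, at percentile 58.6 and 42.3. A region at −17.6 kb near a start of Ifnar2 had 13.2 and 10.4. These were the regions of the window where the replicates differed most, with ratios of 1.21 and 1.28. The weakest region, at 37.3 kb over the noncoding gene Gm49625, had 4.68 and 4.08. Annotated Gm21970 transcripts span Ifnar2 and Il10rb sequence, so an intron can belong to more than 1 gene.

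**Figure D2:**
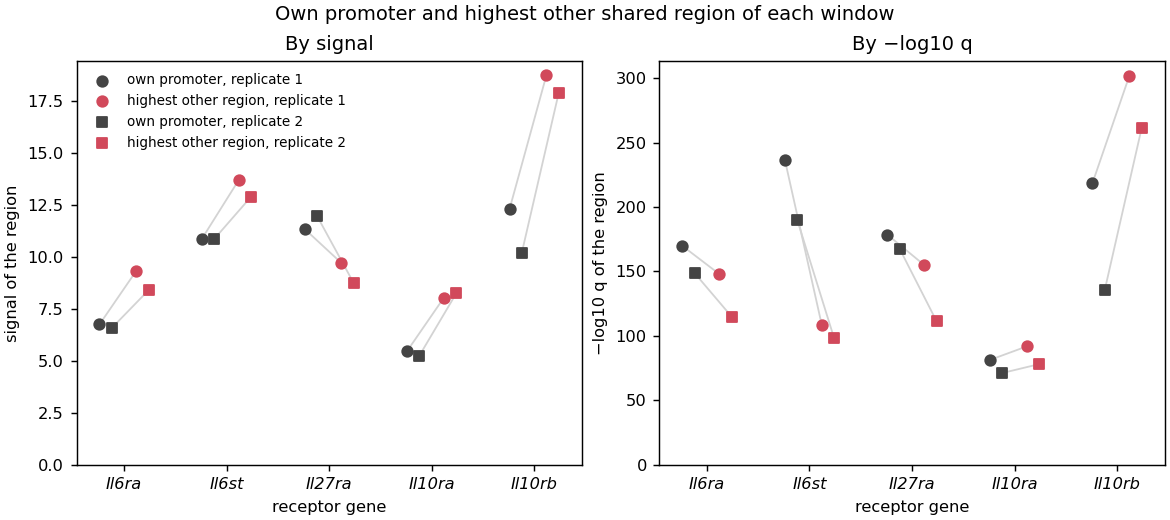
Signal (left) and −log10 q (right) of the strongest own promoter region and of the highest other shared region in each window. Dark symbols are promoters, red symbols the other region, circles replicate 1 and squares replicate 2. By signal the other region is higher at Il6ra, Il6st, Il10ra and Il10rb, and by −log10 q at Il10ra and Il10rb.

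Set side by side by signal, the promoters fell into a higher and a lower set. Il10rb, Il27ra and Il6st had signals between 10.2 and 12.3, and their order changed between replicates. Il6ra and Il10ra were below them in both replicates, and the gap between Il6ra (6.75 and 6.58) and Il10ra (5.46 and 5.24) was wider than the difference between replicates of either. By −log10 q the 2 sets were not kept. Il6ra (169.9 and 148.7) was close to Il27ra (178.6 and 167.6) and, in replicate 2, above Il10rb (135.5). Il10ra (81.3 and 71.2) was the lowest in both replicates by this measure too. With 2 replicates in 1 group no test of these differences was made.

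A region other than the promoter was the strongest of its window by signal in both replicates for 4 of 5 genes, all but Il27ra. The same held for 56% of all protein-coding genes whose promoter was open. Its signal was 1.38 and 1.28 times that of the promoter at Il6ra, 1.26 and 1.19 times at Il6st, 1.47 and 1.57 times at Il10ra, and 1.52 and 1.75 times at Il10rb. At Il6st this rests on the region at 66.1 kb, which crosses the edge of the window and has its summit beyond it. The next there, at 26.2 kb, had 10.94 and 10.75 against 10.88 and 10.86 for the promoter, so it was higher in replicate 1 only. Ranked by −log10 q the count was 2 of 5, Il10ra and Il10rb, beside 45.5% of those genes. Both counts are close to their backgrounds in so small a set. At Il6st the order turned round, and the highest −log10 q outside its promoters, at −5.2 kb, was 0.459 and 0.517 times that of the promoter.

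**Figure D3:**
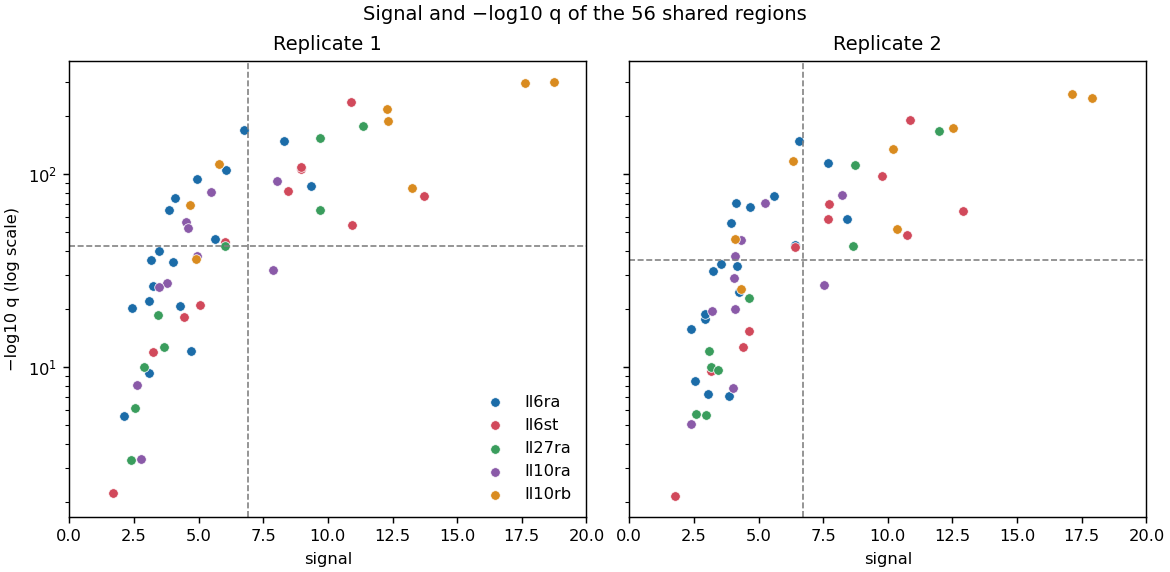
Signal (horizontal axis) and −log10 q (vertical axis, log scale) of the 56 shared regions in each replicate, coloured by gene, with dashed lines at the medians over all 84380 shared regions. Most Il6ra regions lie left of the median signal, while 8 of 18 lie above the median −log10 q in each replicate.

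Over the 56 shared regions the signal was low and the −log10 q was not. The median signal was 4.92 and 4.36, against 6.92 and 6.72 over all shared regions, and 38 of 56 were below that median in each replicate. In each replicate these were 16 of 18 at Il6ra, 8 of 10 at Il10ra and 6 of 9 at Il27ra. At Il6st they were 5 of 11 and at Il10rb 3 of 8. The median at Il6st was 8.44 and 7.68 and at Il10rb 12.3 and 10.3, both above that of all shared regions. The median −log10 q was 45.3 and 39.9, against 42.3 and 36.0. In introns the median signal was 3.98 and 4.07 against 6.15 and 5.99 over all intronic regions, and the median −log10 q was 50.8 and 37.6 against 32.3 and 27.6. Of these 16 intronic regions 9 belong to Il6ra. The cause was not tested.

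Replicates were alike over this set. All 56 shared regions were within 1.5-fold in signal, beside 97.8% of all shared regions, and the median ratio of the larger to the smaller value was 1.08, against 1.09. The signal was at least 1.4-fold apart in 2 regions (3.57%), against 4.60% of all, namely at 22.8 kb of Il6ra and at 33.2 kb of Il10ra (2.77 and 3.99). Summits lay a median of 19.5 bp apart, against 13 bp. Replicate 1 had the higher −log10 q in 49 of 56 regions (87.5%, against 74.5% of all) and the higher signal in 37 (66.1%, against 58.1%). The 7 regions found in 1 replicate only, 6 of them in replicate 1, had signals from 1.66 to 3.17, each below the median of all shared regions. Of the 63 joined regions in the windows 88.9% were found in both replicates, against 81.1% of all 104044.

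**Figure D4:**
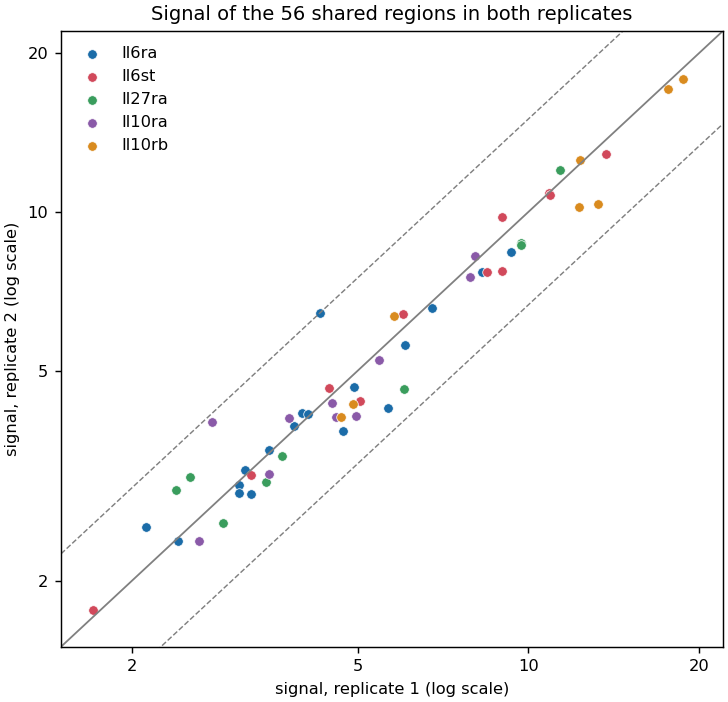
Signal of the 56 shared regions in replicate 1 (horizontal) and replicate 2 (vertical), both on log scales, coloured by gene. The solid line marks equal signal and the dashed lines a 1.5-fold difference, within which every point lies.

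By annotation, 11 of the 56 shared regions were promoter regions of any gene (19.6%, against 25.5% of all shared regions), 15 overlapped an exon (26.8%, against 8.78%), 16 were intronic (28.6%, against 37.2%) and 14 intergenic (25%, against 28.5%). The windows were drawn around genes, while all shared regions include those far from any gene, which alone can shift these shares. Exonic regions were 6 at Il6ra, 4 at Il6st, 3 at Il27ra and 2 at Il10ra. Those at the last exons of Il6ra, Il6st and Il27ra were described above.

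The promoter windows had a higher median G+C than the rest, with overlap between the classes. Around the replicate 1 summit, the 11 promoter windows had a median G+C of 66.2% and a ratio of observed to expected CpG of 0.798, against 59.2% and 0.62 for all promoter regions. The other 45 windows had 50.7% and 0.254, against 47.8% and 0.191 for all regions outside promoters. The promoter windows of Il6st at 2.4, 8.5 and 10.5 kb and the Ifnar2 promoter window at −17.6 kb of Il10rb were below 50.7%.

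AP-1 was the most frequent motif, with a match in 17 and 16 of the 56 windows (30.4% and 28.6%). Over all shared regions it was 26.0% and 25.9%, so the share was near the background. By gene, 5 of 8 Il10rb, 6 of 18 Il6ra and 3 of 11 Il6st windows had a match in each replicate. At Il27ra 3 and 2 of 9 windows had one, and none of the 10 Il10ra windows did. With so few windows per gene no difference between the genes is drawn from these counts. TTCNNNGAA, which STAT dimers bind, was present in 3 windows (5.36%, against 7.99% and 8.11% of all), all outside promoters. They were the Il6ra regions at 6.8 and 48.8 kb and the Il6st region at −16.7 kb. The stricter form TTCCNGGAA was in none, against 1.16% and 1.18% of all.

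The T-box core GGTGTGA, which factors such as T-bet bind, was found in 5 windows around each summit (8.93%, against 4.62% and 4.59%). In replicate 1 these were the Il6st regions at 10.5 and 45.6 kb, the Il10ra regions at 21.6 and −15.0 kb and the Il10rb region at 39.5 kb. The RUNX core TGTGGTT was in 4 (7.14%, against 9.45% and 9.36%), at Il6ra, Il6st and Il10rb. The core bound by GATA factors, AGATAAG, was in 3 (5.36%, against 1.97% and 1.97%), 1 each at Il6ra, Il10ra and Il10rb. The ETS core AGGAAGT was in 4 (7.14%, against 11.2% and 11.2%). The IRF motif, in 2 windows (3.57%, against 4.99% and 4.97%), was at Il10ra alone. GGGCGGG was in 6 (10.7%, against 8.76% and 8.70%) and the TCF and LEF core TTCAAAG in 1 (1.79%, against 4.62% and 4.70%). With so few windows these counts are descriptions of sequence and not of factor binding.

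The other genes of the pathway were described from lists of ligands, partner chains, kinases and STATs, inhibitors and proteases, and STAT3 targets. Of 41 such genes 35 had an open promoter (85.4%, beside 65.9% of all protein-coding genes). The median was 1.31 shared regions per 10 kb, against 1.72 for the 5 receptor genes and 0.669 for all genes.

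Among the ligands 7 of 10 had an open promoter (70%), near the 65.9% of all protein-coding genes. Il6 itself had 10.4 and 9.51, and the interleukin-27 subunit genes had 2.86 and 3.24 (Il27) and 5.82 and 5.78 (Ebi3). Il10, Il22 and Ctf1, a cardiotrophin gene, had no shared promoter region, although the Il10 window held 7 shared regions. Il11 had 9.76 and 9.72, Clcf1 7.98 and 7.54, Lif 5.42 and 5.42, and Osm 4.88 and 4.86, all of them cytokines that signal through Il6st or a complex with it.

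Of the chains that pair with Il6st or Il10rb, and soluble relatives, 6 of 8 had an open promoter (75%). In so short a list this is near the 65.9% of all protein-coding genes. Ifnlr1, the interferon-λ receptor chain that pairs with Il10rb, was highest with 11.97 and 11.6. Osmr (5.91 and 5.77), Il11ra1 (5.70 and 5.26), Lifr (5.36 and 6.60) and Cntfr (3.18 and 3.99) were lower than Il6st. Il11ra1 has a near-identical copy, so reads there may be shared. Il22ra1 and Il22ra2, for the interleukin-22 receptor chain and its soluble decoy, had no shared promoter region. Lifr and Osmr had 0.272 and 0.395 shared regions per 10 kb, against 1.28 for Il6st.

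All 6 kinase, STAT and phosphatase genes were open, beside 65.9% of all protein-coding genes. Stat3, the main transducer of interleukin-6 and interleukin-10, had 13.4 and 14.5. Ptpn11, the phosphatase SHP2 that docks on gp130, had 13.3 and 13.3, and Jak1, the kinase bound by gp130, had 12.3 and 12.02. Jak2 (9.33 and 9.39) and Tyk2 (8.56 and 8.37), further kinases of these receptors, were lower by signal. By −log10 q Jak2 (403.3 and 343.8) was above Jak1 (343.9 and 288), and Tyk2 (344.2 and 283.0) was near it.

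All 7 inhibitors and proteases were open too, beside the same 65.9%. Socs3, which binds gp130 and blocks its kinases, had 7.39 and 7.48 with 2.502 shared regions per 10 kb, the highest density of the 41 pathway genes. Socs1 had 5.12 and 4.97, and Cish 5.19 and 5.11. Their −log10 q, 405.6 and 343.5 for Socs1 and 292.9 and 263.1 for Cish, was above that of every receptor promoter. Adam17 (14.9 and 12.6) and Adam10 (12.9 and 13.2) encode proteases that release Il6ra from the cell surface. Ptpn2, a phosphatase of STAT and JAK proteins, had 13.9 and 13.8, and Pias3 had 11.8 and 12.4.

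Of the STAT3 targets 9 of 10 were open (90%, beside 65.9% of all protein-coding genes). Prdm1 (12.1 and 10.6), Ahr (9.33 and 10.3), Batf (9.25 and 9.04), Bcl3 (9.21 and 8.61) and Maf (8.60 and 9.02) had the higher signals. Il21 had 6.77 and 6.33, Pim1 4.76 and 4.65, and Junb 3.76 and 3.41. Bcl6 was lowest with 2.79 and 2.74. By −log10 q the order differed. Pim1 (224 and 194) was above Maf, Ahr and Batf, and Junb (216 and 157) was above Batf (165 and 139). Bcl6 was the lowest of the open ones by this measure too (38.4 and 31.8).

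**Figure D5:**
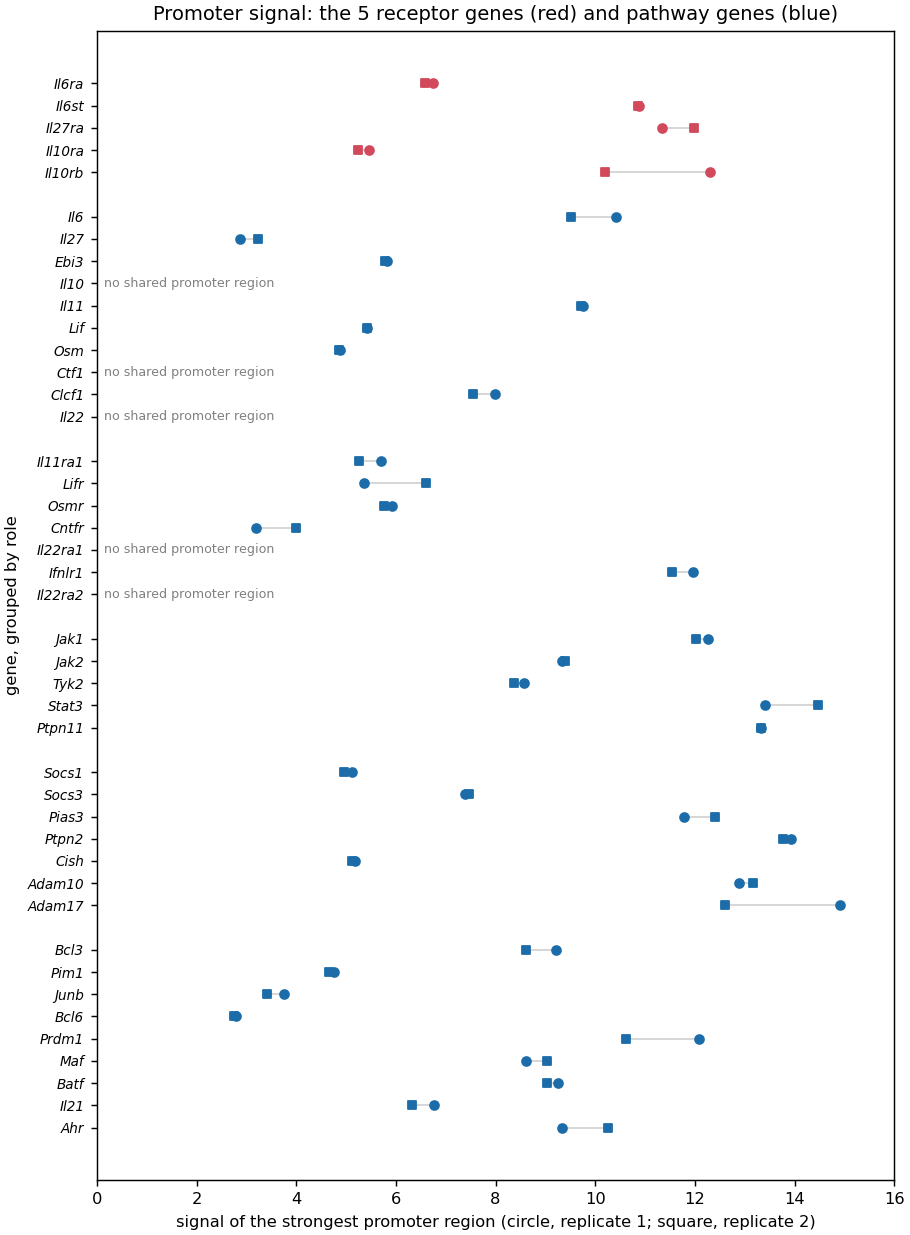
Signal of the strongest promoter region of the 5 receptor genes (red) and of pathway genes named in the text (blue) grouped by role, with circles for replicate 1 and squares for replicate 2. The receptor promoters span 5.24 to 12.3, and genes with no shared promoter region are marked so.

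Markers of T cells and Th1 cells were open at 9 of 9 measured genes, beside 65.9% of all protein-coding genes. Their signals ran from Cd4 (2.29 and 2.33) to Cd3e (9.06 and 9.71), with Cxcr3 (3.57 and 3.03) and Tbx21 (5.48 and 5.65) between. Cd4 was at percentile 0.228 and 0.304 of open promoters. Markers of other cells were open at 2 of 5 B cell genes, 1 of 6 myeloid genes and 2 of 5 NK and CD8 genes, and at none of the 5 hepatocyte genes. The open ones were Pax5 (11.2 and 10.7), Cr2 (15.4 and 14.1), Cd14 (8.29 and 8.10), Cd8b1 (7.32 and 8.14) and Klrb1c (18.3 and 16.1). By signal Klrb1c was above every T cell and Th1 marker. By −log10 q it was not: Klrb1c (193.7 and 139.7) was below Cd3e (251.5 and 253.2), though above Tbx21, Cxcr3 and Cd4. Cd79a, Ms4a1, Lyz2, Csf1r, Itgam, Ncr1 and Cd8a had no shared promoter region. B cells and myeloid cells also use several of the receptors described here, and the part of such cells in these values was not tested.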

How the data were processed

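ATAC-seq regions were available for 2 biological replicates of 1 group. The authors deposited 1 region list per replicate on mm10, made from that replicate's own alignments, per the labels and the deposited file notes. The deposited columns used are a signal, −log10 p and −log10 q per region and a summit offset. A deposited display score was not used. The smallest −log10 q was 1.01 in replicate 1 and 1.00 in replicate 2. Names of the caller and aligner, with versions, were not given in the sources used here.

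Regions on chromosomes 1 to 19, X and Y were joined across replicates at an overlap of 1 bp and took each replicate's strongest signal. 89 and 85 regions lay on other sequence and were left out. No regions overlapped within a list. Genes came from GENCODE M21 and sequence from the GRCm38.p6 reference of C57BL/6J, within whose chromosomes all regions lay. Distances run from the start of the longest coding transcript to the replicate 1 summit, or to the replicate 2 summit where replicate 1 had none. Percentiles rank genes or regions within a replicate. Classes were promoter, exonic, intronic and intergenic, in that order.

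Both strands were searched for 14 motifs in the summit base and 100 bases to either side: those spelled out with the results, CCGGAAGT (ETS), GGGAATTCC (NF-κB), GCGCATGCG (NRF1), an IRF motif of GAAA, any 2 bases and GAAA, and a CTCF core of CCA, any 2 bases and AGGGGGC. NF-κB, NRF1, CTCF and CCGGAAGT had no match in the 56 windows, against 0.191%, 0.462%, 1.57% and 1.37% of all replicate 1 windows. Overlapping matches were allowed.

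The genes and lists were chosen with earlier results of these data known. The text names all 5 receptor genes, the promoter regions, the 3 strongest and the weakest other regions of each, those of 1 replicate only, neighbouring genes and pathway genes, except a few list genes that are counted but not reported here by name. Other regions were chosen after their values were seen. The marker Trac was not annotated as protein-coding and was not used. Joining and motif search were tested on simulated data. Python 3.11.15, pandas 2.3.3, numpy 2.4.6, pysam 0.24.0 and samtools 1.23.1 were used.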

Additional observations from a re-analysis of the deposited data

How the results depend on the processing

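The series has no second group, and no test was run. Under each alternative that bears on promoters (overlap, −log10 q minimum, 1 replicate, promoter width, coding starts) the open promoters stayed at 5 of 5 receptor genes. The pathway count was 33 to 37 of 41, and 36 with either replicate alone. The number of shared regions was 55 with an overlap of 0.5 of both regions, 56 and 53 with a −log10 q of at least 2 and 5, and 57 to 63 with 1 replicate alone. It moved with the window, to 30 on the genes alone, 42 with 10 kb and 97 with 50 kb on either side. On the genes alone Il6ra kept 16 regions, Il6st 7, Il27ra 3, Il10ra 2 and Il10rb 2. With 50 kb they had 24, 18, 16, 21 and 18. The count of genes whose strongest region by signal lay outside their promoter was 4 with either replicate alone and with the signal of the widest region, and 2 when ranked by −log10 q. That count was not recomputed for other windows. The strongest regions of Il6st (66.1 kb) and Il10ra (−11.5 kb) lie more than 10 kb from the gene. No paired analysis was possible because the series has 1 group. Read depth is not in the files used, so the limit it sets on weak regions is unknown.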

Other observations

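Of the neighbouring genes with starts in the windows, some had a shared promoter region and some had none. Rln3, which encodes relaxin 3, had none in the Il27ra window, nor did the pseudogene Gm20612 and Mir7086 in the Il10ra window. Palm3, a paralemmin gene in the Il27ra window, had 2.53 and 3.15, and the region shared by 2210011C24Rik and Mir1199 had 9.70 and 8.73. A promoter region of Ifnar2 with 13.2 and 10.4 stood in the Il10rb window, whereas the start of Gm21970 there had none. The share of the window covered by open regions was highest at Il10ra in replicate 1 (16.4%) and at Il6ra in replicate 2 (14.9%), and lowest at Il6st in both (7.70% and 8.80%).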
